A study of Homo sapiens with 12 samples.

Results

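The genes described here are the nuclear genes whose symbols name respiratory chain complexes I, III and IV and the ATP synthase, the enzymes of oxidative phosphorylation. They were taken by name: every gene typed as protein coding in both count tables whose symbol starts with NDUF, UQCR, ATP5, or COX followed by a digit from 4 to 8. That gave 94 of 60675 genes, namely 37 subunits of complex I, 8 complex I assembly factors, 9 genes of complex III, 19 of complex IV with its isoforms, 19 of the ATP synthase and 2 read-through genes. No measured value entered that rule. RNA was sequenced from 2 lines of triple-negative breast cancer, namely MDA-MB-468 (kept in DMEM) and HCC1187 (kept in RPMI-1640), both with fetal bovine serum, 48 h after transfection with an shRNA against the long non-coding RNA SOX9-AS1 or, as control, with an shRNA against LacZ, a bacterial gene. Each of the 4 groups had 3 libraries, called S1 to S3 (MDA-MB-468 control), S4 to S6 (MDA-MB-468 knockdown), S7 to S9 (HCC1187 control) and S10 to S12 (HCC1187 knockdown). The labels do not say whether a group's libraries are separate cultures, so p-values measure only the spread between these libraries.

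Complex I takes electrons from NADH and passes them to ubiquinone, complex III passes them on to cytochrome c, and complex IV hands them to oxygen. All of these pump protons out of the matrix, and the ATP synthase lets them back through its membrane part Fo to drive ATP formation in its F1 head. A few core subunits are encoded by mitochondrial DNA and the others by nuclear genes. Complex I is built from an N module that oxidises NADH, a Q module that reduces ubiquinone, and a membrane arm with a proximal and a distal part.

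Lane 1 of each library held 6026376 to 10160040 counts, of which the 94 genes took 0.740% to 0.880%. Levels are given as CPM, counts scaled to a common library size after TMM, a correction for the make-up of each library. Fold changes are log2 values of knockdown over control with their standard errors, and adjusted p-values are those of edgeR's quasi-likelihood test over all genes. In HCC1187 the level of SOX9-AS1 was 2.32, 1.4 and 1.74 CPM in the controls and 1.16, 0.697 and 0.796 CPM after knockdown, without overlap (−1.08 ± 0.36, adjusted p = 0.0349). That call was lost in 5 of 13 alternatives, with DESeq2 and without S7, S9, S11 or S12, where the adjusted p reached 0.168. Its MDA-MB-468 levels were 6.04, 7.28 and 6.54 CPM in the controls and 5.54, 5.03 and 5.57 CPM after knockdown, a difference that did not pass (−0.30 ± 0.20, adjusted p = 0.417; without S4 adjusted p = 0.274). S4, labelled knockdown, had a correlation across genes of 0.990 to 0.995 with the control libraries, above its 0.975 with S5 and 0.972 with S6, and the sample table that the authors deposited for this line leaves it out. Results for MDA-MB-468 are therefore given with all libraries first and then without S4, a fit chosen with the place of S4 known. In the libraries labelled HCC1187 the 6 basal breast markers summed to 59.2 to 71.2 CPM, against 8549 to 8709 CPM in the MDA-MB-468 controls. EGFR and KRT17 were detected there, EGFR with 52.7, 57.2 and 54.2 CPM in the controls, while KRT5 was at most 0.194 CPM, KRT14 at most 0.108 CPM and KRT6B at 0 in all 6. The 4 epithelial markers summed to 235 to 300 CPM there, against 3218 to 3443 CPM in the MDA-MB-468 controls. KRT8 and KRT18 held most of that sum in HCC1187, while EPCAM was at 3.68 to 7.39 CPM. A list of 5 markers of the HEK293 line, a human embryonic kidney line, summed to 468, 488 and 515 CPM in the HCC1187 controls and to 259, 303 and 264 CPM after knockdown, against 11.9 to 14.1 CPM in the MDA-MB-468 controls. Of the 5, LIN28B, NEFM and NEFL fell in HCC1187 by 1.22, 1.01 and 0.34, and PAX2 and PCSK1N did not pass. The part of these markers in the HCC1187 results was not tested, and the line is called HCC1187 below as its label has it.

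Promoters of 73 of the 94 genes were matched in RefSeq's table (GRCh38.p14, windows of 250 bases before and 50 after each start). They were searched on both strands for letters found in binding sites of NRF1 (GCATGCGC), of ETS factors such as GABPA (CCGGAAGT) and of YY1 (AAGATGGCG), factors known for driving nuclear respiratory genes. The NRF1 letters stood in 13 of the 73 windows (17.8%), against 3.27% of all 27305 windows in the table. The ETS letters stood in 8 (11% against 4.44%) and the YY1 letters in 7 (9.59% against 1.85%). At least one of these was present in 24 of the 73 windows (32.9%, against 8.90% of all windows). By call in HCC1187, that was so for 7 of 19 matched genes that rose, 17 of 45 that did not pass and 0 of 5 that fell. To show such letters in place, 4 genes that rose in HCC1187 and hold them are printed with COX4I1, which fell there and whose window holds none. Genes that rose and hold none, such as NDUFB3 and NDUFB1, are not printed. Each line gives the 250 bases before the start, 5′ to 3′ on the gene's strand, with matches in capitals. The stretches are chr5:1801157-1801406, chr2:97645812-97646061, chr5:132866392-132866641 and chr16:85799445-85799694 on the plus strand and chr4:674277-674526 on the minus strand.
NDUFS6: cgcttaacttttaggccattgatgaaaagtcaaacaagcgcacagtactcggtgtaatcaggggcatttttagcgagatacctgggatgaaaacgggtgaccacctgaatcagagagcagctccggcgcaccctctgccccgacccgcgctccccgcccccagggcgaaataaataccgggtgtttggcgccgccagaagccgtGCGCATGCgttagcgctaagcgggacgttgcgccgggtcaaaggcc
ATP5ME: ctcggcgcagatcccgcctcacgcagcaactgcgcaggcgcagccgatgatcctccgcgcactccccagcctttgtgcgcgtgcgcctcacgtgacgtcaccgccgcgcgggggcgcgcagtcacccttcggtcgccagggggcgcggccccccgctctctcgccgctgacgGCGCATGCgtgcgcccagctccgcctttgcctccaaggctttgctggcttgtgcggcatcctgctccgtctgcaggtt
COX5B: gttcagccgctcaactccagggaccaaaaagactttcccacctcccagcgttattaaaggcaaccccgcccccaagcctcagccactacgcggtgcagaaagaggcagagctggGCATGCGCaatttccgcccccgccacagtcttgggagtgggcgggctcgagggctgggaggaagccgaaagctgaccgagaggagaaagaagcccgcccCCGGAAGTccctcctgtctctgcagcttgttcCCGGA
UQCRQ: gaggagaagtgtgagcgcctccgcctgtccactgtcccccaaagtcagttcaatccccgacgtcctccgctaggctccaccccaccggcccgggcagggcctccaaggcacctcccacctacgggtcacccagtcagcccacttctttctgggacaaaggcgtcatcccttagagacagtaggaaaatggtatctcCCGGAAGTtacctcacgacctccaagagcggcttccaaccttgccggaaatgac
COX4I1: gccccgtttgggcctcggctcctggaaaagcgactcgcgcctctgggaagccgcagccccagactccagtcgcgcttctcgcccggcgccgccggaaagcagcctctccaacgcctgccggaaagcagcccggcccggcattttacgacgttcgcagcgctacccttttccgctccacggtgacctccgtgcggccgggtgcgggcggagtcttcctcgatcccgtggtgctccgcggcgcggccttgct
The NRF1 letters lay 46 bases before the start in NDUFS6, 78 in ATP5ME and 136 in COX5B. The ETS letters lay 54 bases before it in UQCRQ and 37 and 5 bases before it in COX5B. A match describes these letters only.

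In HCC1187, 21 of the 85 genes tested rose after knockdown and 7 fell, while 57 did not pass. The other 9, among them ATP5MGL and both read-through genes, had too few counts to be tested. Of all 14970 genes tested, 9.78% rose and 13.1% fell. The fold change was above 0 for 62 of the 85 genes, against 52% of all genes, and its median was 0.14 against 0.01. All 3 knockdown libraries lay above all 3 controls for 28 genes, against 19.2% of all genes, and below them for 8, against 19.2%. The rises were small, from 1.19-fold to 1.66-fold with a median of 1.26-fold. The falls ran from 1.36-fold to 2.45-fold, the largest being that of COX6B2 on few counts. COX6B2 and NDUFV2, among the 7 falls, had enough counts to be tested through the controls, where they were high.

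**Figure D1:**
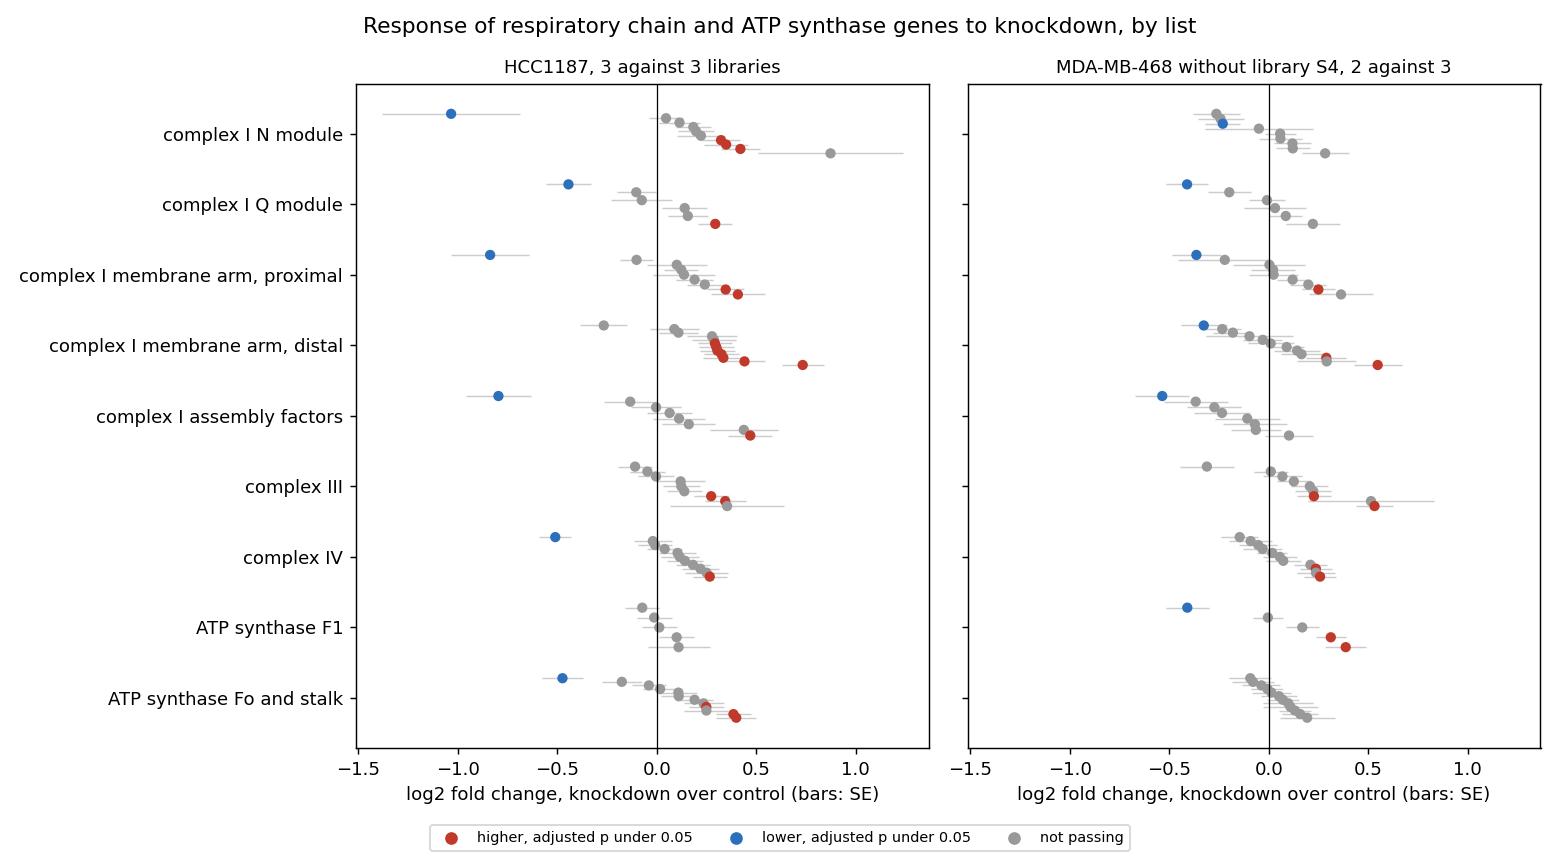
Each point is a gene, placed by its log2 fold change of knockdown over control (bars are standard errors) and coloured by call, with HCC1187 on the left and MDA-MB-468 without S4 on the right; rows are lists of subunits. The distal membrane arm of complex I has 7 rises and 0 falls among 12 genes in HCC1187, and 2 rises and 1 fall in MDA-MB-468.

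Complex I, with 37 genes tested, held 13 of the 21 rises. Its distal membrane arm, formed here by the NDUFB subunits and the acyl carrier NDUFAB1, had 7 rises and 0 falls among 12 genes, with a median of 0.30. NDUFB3, an accessory subunit of that arm, had 32.1, 30.0 and 25.7 CPM in the controls and 47.7, 50.7 and 48.8 CPM after knockdown. Its groups lay far apart, and its rise was the largest of the 21 (0.73 ± 0.11, adjusted p = 2.98e-05). NDUFB1 went from 35, 29 and 31.2 to 44.9, 41.1 and 43.9 CPM, again without overlap (0.44 ± 0.10, adjusted p = 0.00378). NDUFB9 went from 102, 95.1 and 93.7 to 131, 113 and 123 CPM (0.32 ± 0.09, adjusted p = 0.00934). NDUFB2, NDUFB4, NDUFB10 and NDUFB11, further subunits of the arm, rose by 0.33, 0.30, 0.29 and 0.30. The other members of the arm, NDUFB5 to NDUFB8 and NDUFAB1, lay between −0.27 and 0.29 and did not pass. Summed over the arm, the controls held 667, 625 and 634 CPM and the knockdown libraries 823, 752 and 785 CPM, so every knockdown library was above every control. The same held for the sums of the N module and the proximal arm, but not for the Q module. The sum of the 8 complex I assembly factors was also higher in every knockdown library, but this rested largely on NDUFAF3. Among these 8 genes 1 rose and 1 fell, with a median of 0.09.

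In the N module 3 of 10 genes rose and 1 fell. NDUFS6, a zinc-binding subunit, stood at 46.3, 46 and 39.7 CPM in the controls and at 62.5, 59.8 and 55.9 CPM after knockdown (0.42 ± 0.10, adjusted p = 0.00375). NDUFA2 and NDUFV3, accessory subunits of the module, rose by 0.35 ± 0.11 and 0.32 ± 0.10. The core genes NDUFV1, which binds flavin, and NDUFS1, which holds iron-sulfur clusters, did not pass (0.20 and 0.05). The fall was in NDUFV2, an iron-sulfur subunit, from 1.55, 2.49 and 2.26 to 0.727, 0.836 and 1.33 CPM (−1.03 ± 0.35, adjusted p = 0.0347). NDUFV2 had enough counts to be tested through the controls, where it was high. Its call was lost in 6 of 13 alternatives, DESeq2 included. Its value is uncertain: of the counts of NDUFV2 and its 1 named copy together, the copy took 32.2% in the controls and 49.0% after knockdown, and the gene shares 28.4% of its exon bases with AP005263.1 on its strand in GENCODE v29. NDUFA7, another accessory subunit, was also at a low level, 0.775, 0.756 and 0.821 against 1.45, 1.39 and 1.5 CPM, and did not pass (0.87 ± 0.36, adjusted p = 0.0856). It shares 32.3% of its exon bases with AC010323.1 on its strand, so its counts are uncertain too.

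In the Q module NDUFA5, an accessory subunit, fell from 49.2, 56.8 and 47.7 to 31.6, 41.8 and 39.9 CPM (−0.44 ± 0.11, adjusted p = 0.00636), without overlap. In the proximal membrane arm NDUFC1 and NDUFA3 rose and NDUFC2 fell, while 6 genes did not pass. NDUFC1 went from 52.7, 47.2 and 50.4 to 63.6, 63.3 and 65.3 CPM (0.35 ± 0.09, adjusted p = 0.00871), and NDUFA3 rose by 0.41 ± 0.13. NDUFC2 went from 22.6, 22.8 and 21.7 to 8.73, 8.22 and 19 CPM (−0.84 ± 0.20, adjusted p = 0.00371). S12 was much nearer the NDUFC2 controls than S10 and S11 were. The assembly factors, which help build the complex without staying in it, held 1 rise and 1 fall among 8. NDUFAF3 went from 68.6, 58.1 and 71.9 to 111, 87.8 and 79.4 CPM (0.47 ± 0.11, adjusted p = 0.00378). NDUFAF8 went from 16.1, 12.1 and 17.7 to 10.3, 8.92 and 7.78 CPM (−0.80 ± 0.16, adjusted p = 0.0012), without overlap.

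**Figure D2:**
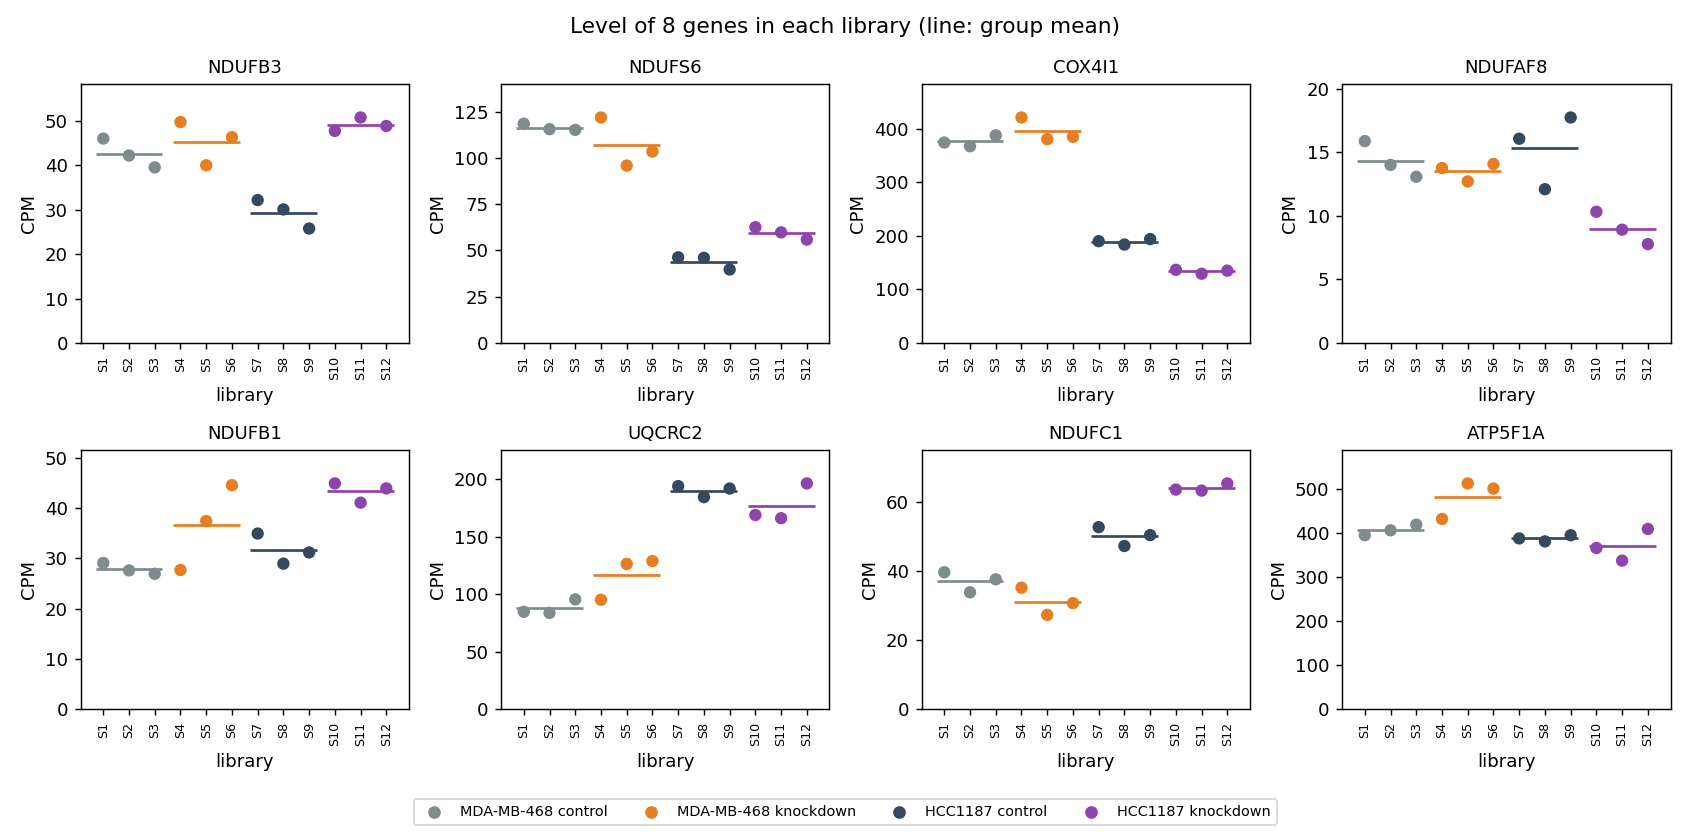
Each panel gives the CPM of 1 gene in libraries S1 to S12, coloured by group, with a line at the group mean; each axis starts at 0. NDUFB3 lies at 25.7 to 32.1 CPM in the HCC1187 controls and at 47.7 to 50.7 CPM after knockdown, and UQCRC2 in S4 lies at 95.1 CPM, next to its controls.

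Complex III had 2 rises and 0 falls among 9 genes in HCC1187, both in small subunits. UQCR10 went from 85.9, 85 and 92.3 to 115, 98.4 and 107 CPM (0.27 ± 0.09, adjusted p = 0.0279). UQCRQ went from 65.5, 53.5 and 60.2 to 80.9, 64.8 and 82.9 CPM (0.34 ± 0.10, adjusted p = 0.0191), with S11 just below S7. Of 13 alternatives, the UQCR10 call was lost in 6 and the UQCRQ call in 4. The core proteins UQCRC1 and UQCRC2 (−0.05 and −0.11) and the Rieske iron-sulfur gene UQCRFS1 (0.12) did not pass.

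Complex IV had 1 rise and 2 falls among 13 genes tested. COX4I1, the common isoform of the regulatory subunit IV, stood at 190.1, 184 and 194 CPM in the controls and at 137, 129 and 135 CPM after knockdown. The gap was wide beside the spread within groups, and the p was the smallest of the 7 falls (−0.51 ± 0.08, adjusted p = 8.53e-05). COX5B, a subunit on the matrix side, rose from 81.2, 74.7 and 78.4 to 96.9, 93.1 and 93.7 CPM (0.27 ± 0.09, adjusted p = 0.0277). The COX5B call was lost in 7 of 13 alternatives. COX6B2, known as a testis isoform, fell from 1.65, 1.19 and 2.36 to 0.436, 0.557 and 0.973 CPM on few counts (−1.29 ± 0.40, adjusted p = 0.0231). It had enough counts to be tested only through the controls, where it was high. Its call was lost in 5 of 13 alternatives, DESeq2 included. It shares 30.9% of its exon bases with AC020922.1 on its strand, so its counts are uncertain. The isoforms COX4I2, COX6A2, COX7A1, COX7B2, COX8C and NDUFA4L2 had too few counts to be tested in any comparison, and COX7A1 and COX7B2 had 0 counts in every library.

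The ATP synthase had 4 rises and 1 fall among 18 genes tested, and none of its 5 F1 genes passed. ATP5F1B, the catalytic beta subunit, stood at 702, 689.8 and 759.6 against 721, 642 and 783 CPM (−0.01 ± 0.09). ATP5PD, a subunit of the peripheral stalk, went from 84.5, 78.8 and 86.9 to 105, 110.2 and 114 CPM (0.38 ± 0.09, adjusted p = 0.00238). ATP5ME, a small membrane subunit, went from 55, 49.2 and 62.4 to 79.3, 72.3 and 69.9 CPM (0.40 ± 0.10, adjusted p = 0.00555). Both rose without overlap. ATP5PF, a further stalk subunit, rose by 0.25 ± 0.09 and the inhibitor ATP5IF1 by 0.28 ± 0.09. Their calls were lost in 8 and 7 of 13 alternatives. ATP5MD, another small membrane subunit, fell from 72.3, 60.1 and 64.8 to 42.6, 45.4 and 54 CPM (−0.47 ± 0.10, adjusted p = 0.00207). In GENCODE v29, 37 of the 94 genes share exon bases with a gene on the other strand and 26 with one on their own strand, and whether counting used strand is not stated in the sources at hand. Without strand, reads of such partners cannot be told apart. On the other strand ATP5ME shares 61.6% of its exon bases with MYL5, NDUFB11 44.9% with RBM10 and NDUFA1 44.5% with RNF113A. NDUFS7 shares up to 35.7% with a single such gene and NDUFB2 up to 27.9%. For ATP5F1E it is 23.2% with TUBB1, for NDUFAF3 21.7% with DALRD3, for UQCRQ 20.8% with GDF9 and for NDUFB3 19.8% with FAM126B.

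**Figure D3:**
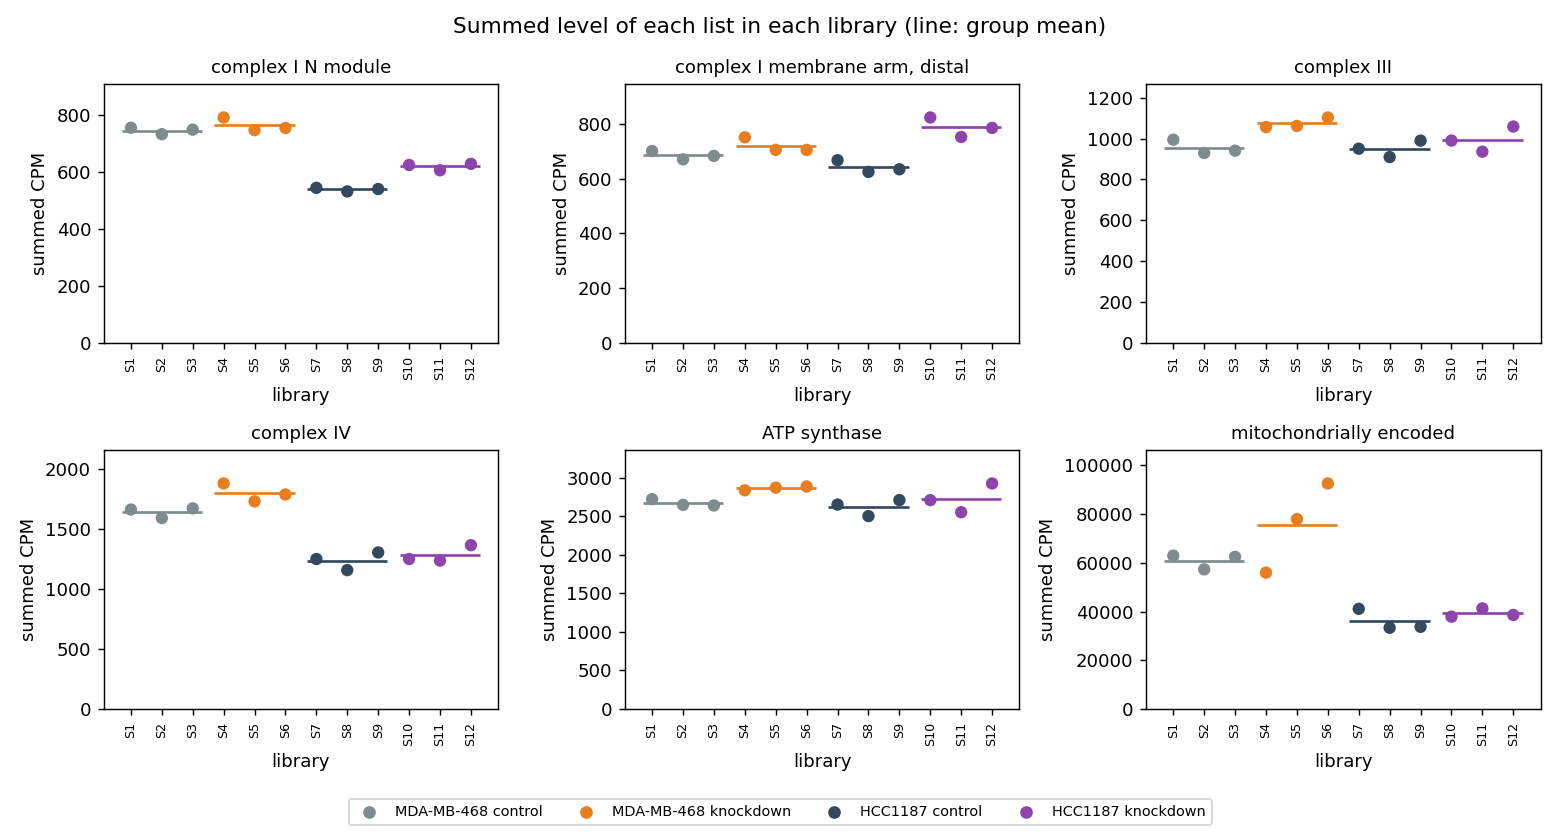
Each panel gives the summed CPM of 1 list in libraries S1 to S12, coloured by group, with a line at the group mean; each axis starts at 0. The distal arm of complex I lies at 625 to 667 CPM in the HCC1187 controls and at 752 to 823 CPM after knockdown. The N module lies at 532 to 545 and at 606 to 629 CPM in these groups. Complex III and the ATP synthase overlap between them.

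Gene length and scaling moved with the HCC1187 result. Among members with a mean of at least 20 CPM, the median fold change was 0.22 for 10 genes with a deposited gene-model length of up to 1 kb, 0.24 for 30 genes of 1 to 2.5 kb, 0.11 for 26 genes of 2.5 to 6 kb and 0.02 for 9 genes over 6 kb. Across all protein-coding genes of that level it was 0.12, 0.09, −0.01 and −0.06 in the same bins. In the bin of 1 to 2.5 kb, 13 of 30 members rose (43.3%), against 15.8% of those genes. The rank correlation of length and fold change was −0.35 across the 75 members and −0.17 across the 8583 genes, all measured in the same libraries; in MDA-MB-468 without S4 it was 0.06 and 0.02. The part of length in the result was not tested. With scaling by library totals only, 32 members rose and 7 fell, and the share of rises among all genes called went from 42.8% to 57.7%.

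**Figure D4:**
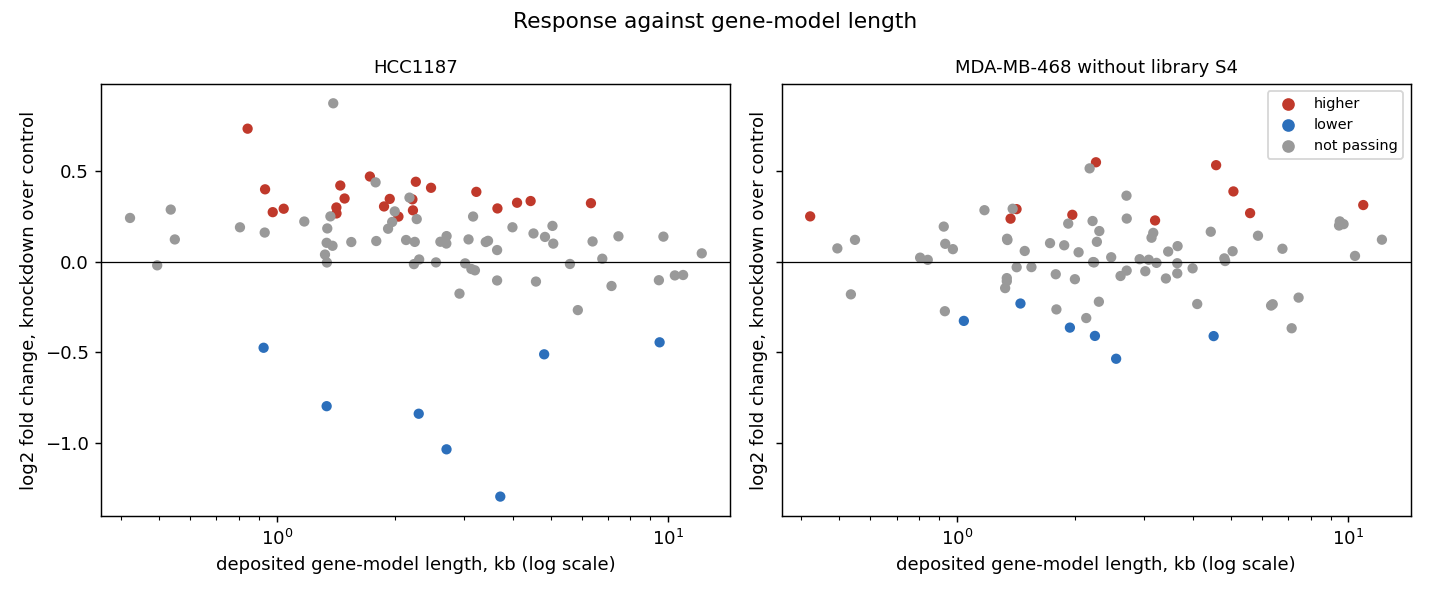
Log2 fold change of each gene against its deposited gene-model length in kb (log scale), coloured by call, for HCC1187 on the left and MDA-MB-468 without S4 on the right. In HCC1187 the genes over 6 kb had a median of 0.02.

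In MDA-MB-468 with all 6 libraries 0 of the 83 genes tested passed with edgeR, where 0.00733% of all 13638 genes did; DESeq2 called 0 of them too, with 226 genes higher and 78 lower over all genes, and limma-voom called 0 genes in all. Unadjusted, 10 of the 83 had p under 0.05, against 18.7% of all genes. The fold change was above 0 for 59 of 83, against 49.9% of all genes, with a median of 0.06. All knockdown libraries lay above all controls for 16 genes, against 10.2% of all genes, and below them for 1, against 11.4%. COX7C, a small subunit of complex IV, was among the 16, with 152, 150.1 and 142 CPM in the controls and 193, 178 and 177 CPM in S4 to S6 (0.31 ± 0.10, adjusted p = 0.207).

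Without S4, 10 of the 83 genes rose and 6 fell, against 20% and 20.7% of all 13947 genes tested, so both shares were below those of all genes. The fold change was above 0 for 50 of 83, against 49.8% of all genes. Complex III held 2 rises among 9 genes tested and complex IV 3 among 12, with 0 falls, where 20% of all genes rose. UQCRC2, a core protein of complex III, stood at 84.6, 83.7 and 95.4 CPM in the controls, at 95.1 in S4 and at 126 and 129 CPM in S5 and S6 (0.53 ± 0.09, adjusted p = 0.000307; with S4 0.41 ± 0.14, adjusted p = 0.208). Its partner UQCRC1 rose by 0.23 ± 0.08, a call lost in 6 of 10 alternatives, DESeq2 included. In complex IV, COX7C and COX6B1 rose by 0.26 ± 0.08 and 0.24 ± 0.08. COX7A2L, known for joining complexes III and IV, rose by 0.27 ± 0.09. The calls of COX7C, COX6B1 and COX7A2L were lost in 3, 4 and 3 of 10 alternatives. In the F1 head ATP5F1A, the alpha subunit, stood at 395, 407 and 419 CPM in the controls, at 432 in S4 and at 513 and 502 CPM in S5 and S6 (0.31 ± 0.07, adjusted p = 0.00387). S5 and S6 lay above both the controls and S4. ATP5F1E, epsilon of the central stalk, rose by 0.39 ± 0.10. ATP5F1D, delta of that stalk, went from 53.1, 48.6 and 53.2 to 40.9 and 37.2 CPM (−0.41 ± 0.11, adjusted p = 0.00717), while S4 was at 63.5 CPM, above all controls.

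Complex I gave 3 rises and 4 falls among 36 genes tested without S4, against 20% and 20.7% of all genes. NDUFB1 stood at 29.1, 27.6 and 26.9 CPM in the controls, at 27.7 in S4 and at 37.4 and 44.6 CPM in S5 and S6 (0.55 ± 0.12, adjusted p = 0.0021). NDUFB11 and NDUFA1 rose by 0.29 ± 0.10 and 0.25 ± 0.08, and each of these calls was lost in 4 of 10 alternatives. NDUFS8, an iron-sulfur subunit of the Q module, went from 119, 119 and 131 to 104 and 81.6 CPM, with S4 at 149.7 (−0.41 ± 0.11, adjusted p = 0.0061). NDUFC1, NDUFB10 and NDUFS6 changed by −0.36, −0.33 and −0.23. Among the 8 assembly factors NDUFAF4 alone passed, from 37.1, 34.1 and 38.2 to 21.9 and 28.8 CPM, with S4 at 36.6 (−0.53 ± 0.14, adjusted p = 0.00554). Basal markers were lower in S5 and S6 as well: 5 of 6 fell, KRT17 stood at 124 and 101 CPM against 663, 624 and 572 in the controls and 633 in S4, and the summed list was at 6474 and 6466 CPM against 8549, 8585 and 8709 CPM. Their part in these results was not tested.

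Of the 83 genes tested in both lines, NDUFB1 and NDUFB11 rose in HCC1187 and in MDA-MB-468 without S4. NDUFB10, NDUFC1 and NDUFS6 rose in HCC1187 and fell in MDA-MB-468 without S4, and 0 genes fell in both. These 3 falls were not stable: each was lost with DESeq2 and when S1 was left out too. The NDUFB11 rise in MDA-MB-468 was also lost with DESeq2. The 2 shared rises were 9.52% of the rises in HCC1187 and 20% of those in MDA-MB-468, against 23.6% and 12.2% over all 12421 genes tested in both. The 3 opposite calls were 14.3% of the rises in HCC1187 and 50% of the falls in MDA-MB-468, against 14.8% and 7.18%. The test of the difference between the responses over all 12 libraries passed for 4 of 85 genes, against 3.75% of all 16328 genes. COX4I1, which fell in HCC1187, had 374, 367 and 388 CPM in the MDA-MB-468 controls and 421, 381 and 385 CPM after knockdown there, and its response was lower in HCC1187 (−0.57 ± 0.11, adjusted p = 0.0152). The response was higher in HCC1187 for NDUFB3 (0.66 ± 0.17, adjusted p = 0.0445), NDUFC1 (0.61 ± 0.16, adjusted p = 0.0454) and NDUFA7 (2.40 ± 0.62, adjusted p = 0.0456), the last on under 2 CPM. The calls of these 3 were lost when any single library but S4 was left out and with no filter on low counts, and that of COX4I1 without S1 and without S2. At a threshold of 0.01 none of the 4 passed. The NDUFA7 call was lost with DESeq2 too. NDUFA7 had enough counts to be tested mainly through the HCC1187 knockdown libraries (10, 10 and 17 counts), so the filter favoured a higher response there. Without S4 the test passed for 11 genes with a higher and 6 with a lower response in HCC1187, against 25.6% of all 16807 genes. They included NDUFS6 (0.65 ± 0.13) and NDUFB9 (0.56 ± 0.13) on the higher side and UQCRC2 (−0.64 ± 0.13) and ATP5MD (−0.67 ± 0.18) on the lower.

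Before knockdown, 26 of 84 genes were higher in the HCC1187 controls than in the MDA-MB-468 controls and 35 lower, against 43.6% and 40.4% of all 15592 genes. Line, medium and any library batch cannot be told apart here. COX6B1, a complex IV subunit, stood at 222, 203 and 228 CPM in MDA-MB-468 and at 52.2, 46 and 60.5 CPM in HCC1187 (−2.03 ± 0.09, adjusted p = 8.17e-15). NDUFS5 of the proximal arm was lower in HCC1187 too, with 402, 377 and 395 against 125, 127 and 138 CPM (−1.58 ± 0.07). NDUFB8 of the distal arm was higher there, with 6.15, 7.01 and 7.05 against 20.8, 18.5 and 21.2 CPM (1.60 ± 0.15). These groups lay far apart. The NDUFB8 counts are uncertain, since it shares 33.8% of its exon bases with AL133352.1 on its strand. NDUFS6 and NDUFB7 differed by −1.39 and −1.32, and NDUFAF3, ATP5MC2 and UQCRC2 by 1.24, 1.18 and 1.12. COX6B2 had 0 counts in every MDA-MB-468 library and 51 over the 3 HCC1187 controls, at least 13.9-fold higher against a floor of 3 counts over the MDA-MB-468 controls, with the overlap given above. With scaling by library totals only, the median over all genes moved from 0.06 to 0.29, and 37 members were higher and 28 lower. Per kb of deposited gene-model length, the highest levels in the MDA-MB-468 controls were 714 CPM per kb for NDUFS5, 281 for NDUFA1 and 256 for ATP5F1B. In the HCC1187 controls they were 320 CPM per kb for ATP5F1B, 237 for NDUFS5 and 177 for COX8A. COX8A shares 34.5% of its exon bases with AP000721.1 on its strand. The deposited length of NDUFA1 is 421 bases, against 766 in GENCODE v29, so such ranks depend on the annotation.

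**Figure D5:**
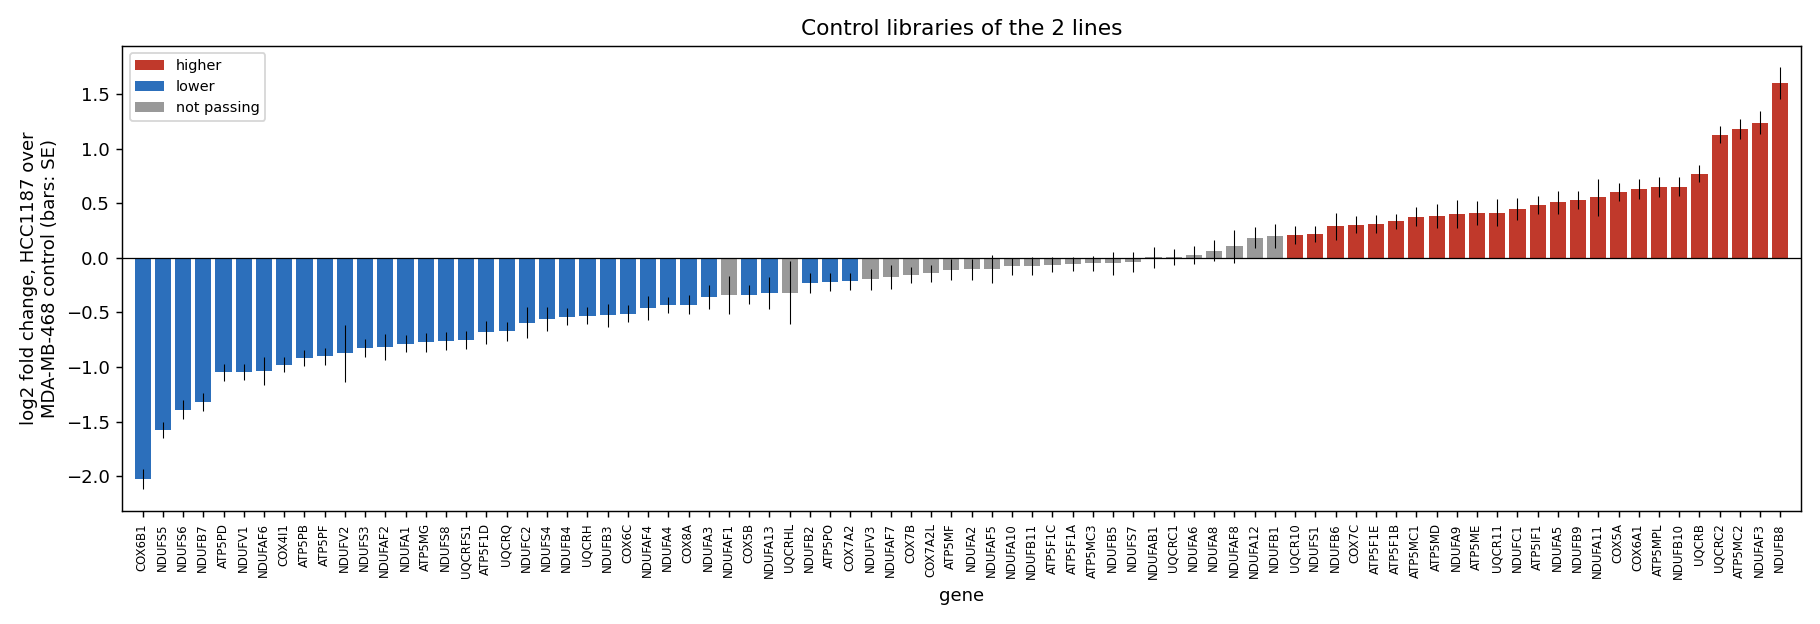
Bars give the log2 fold change of HCC1187 controls over MDA-MB-468 controls for the genes tested, leaving out COX6B2 and 1 gene that is not reported here, in order of size and coloured by call, with standard errors as lines. COX6B1 lies lowest at −2.03 and NDUFB8 highest at 1.60.

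Other genes of the pathway came from lists of assembly factors, complex II and cytochrome c genes, regulators and the 13 mitochondrially encoded subunits. Their counts stand beside 9.78% of all genes tested that rose in HCC1187 and 13.1% that fell. In HCC1187, SDHD, a membrane anchor of complex II, fell from 64.4, 67.3 and 64 to 20.9, 30.2 and 35.6 CPM (−1.16 ± 0.13, adjusted p = 1.04e-06), the 1 of 6 genes in its list to pass. Of 20 complex IV assembly genes 2 rose and 3 fell. The copper chaperone COX17 rose from 25.1, 24.7 and 23.9 to 41, 42.2 and 41 CPM (0.74 ± 0.10, adjusted p = 1.82e-05), and COX14 fell from 13, 14.5 and 14.7 to 6.69, 6.97 and 7.87 CPM (−0.96 ± 0.15, adjusted p = 8.76e-05). Of 10 assembly genes of complexes II and III 3 rose and 0 fell, of 10 further ones of complex I 1 rose, and of 4 of complex V 0 passed. Of 13 regulators 1 rose and 4 fell. YY1 fell from 247, 253 and 252 to 185, 177 and 195 CPM (−0.44 ± 0.08, adjusted p = 0.000393), and TFAM, which packages and transcribes mitochondrial DNA, fell too (−0.47 ± 0.10, adjusted p = 0.00155). Among the 13 mitochondrially encoded genes MT-ND6 alone passed (−0.41 ± 0.10, adjusted p = 0.00437).

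In MDA-MB-468 without S4, 7 of the 13 mitochondrially encoded genes rose and 1 fell. For this and the lists below, 20% of all genes tested rose in that fit and 20.7% fell. MT-CO3, a core subunit of complex IV, stood at 6673, 5998 and 6861 CPM in the controls, at 6386 in S4 and at 11606 and 14442 CPM in S5 and S6 (0.99 ± 0.09, adjusted p = 1.16e-06; with S4 adjusted p = 0.208). MT-CO2 and MT-CYB rose by 0.90 ± 0.09 and 0.82 ± 0.08. The summed level of the 13 genes was 62968, 57339 and 62487 CPM in the controls, 55997 in S4 and 77985 and 92631 CPM in S5 and S6. Of 10 assembly genes of complexes II and III 4 rose and 2 fell, led by UQCC1 (0.84 ± 0.14, adjusted p = 0.000184) and SDHAF4 (1.18 ± 0.20, adjusted p = 0.000245). SDHA, the flavoprotein of complex II, rose by 0.54 ± 0.10. Of 20 complex IV assembly genes 1 rose and 5 fell, with COA7 at −0.79. Of 12 regulators 0 rose and 5 fell. PPRC1, a coactivator of the PGC-1 family, went from 90.8, 93 and 85.1 to 53.4 and 45.1 CPM, with S4 at 85 (−0.87 ± 0.10, adjusted p = 1.35e-05), and it fell in HCC1187 as well (−0.31 ± 0.09, adjusted p = 0.0174).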

How the data were processed

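Gene counts that the authors deposited for both lines (60675 genes each) were used. The columns carry lane labels, and as a group may hold no more columns than samples, lane 1 of each library was used, so 24 lane columns were not analysed here, although the lanes could have been summed. The word BLANCO in the knockdown columns is not explained in the sources used here. Per the submitters' processing notes reads were handled with featureCounts 2.0.0, HISAT2 2.1.0, SAMtools, Trimmomatic 0.39, FastQC 0.11.9 and MultiQC 1.11, and the genome was GRCh38. No settings, annotation release or strand option are given in the sources used here. Per the labels' protocols a stranded mRNA kit was read as pairs of 76 bp. Each line was fitted by itself with edgeR 4.0.16 (R 4.3.3) with TMM scaling of genes kept by filterByExpr (at least 10 counts, total of at least 15), and the difference between lines as an interaction over 12 libraries. Genes passed at a Benjamini-Hochberg p under 0.05 over all genes tested. Alternatives were DESeq2 1.42.0, voom of limma 3.58.1, other scalings, filters and thresholds, and leaving out each library. The code was tested on simulated data. The members and gene lists were chosen with earlier results of these data known, so lists carry no test. Any member could be named; full statistics went to at most 4 members per list of smallest p in a line, shared calls and the 6 largest line differences, and of other genes to at most 3 per list, while ATP5F1B, NDUFA7 and further members were chosen after their values were seen. Exon overlaps come from GENCODE v29 (GRCh38), in which 37 of the 94 genes have the deposited length. No pair of libraries within a group was a duplicate (chi-square of 1.98 to 38.0 per degree of freedom). The values of 1 member are not reported here.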

Additional observations from a re-analysis of the deposited data

Results flagged for a closer look

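The response to knockdown differed between the lines, by the interaction test over 12 libraries, for 4 of 85 genes, against 3.75% of all genes. COX4I1 responded lower in HCC1187 (log2 difference −0.57). NDUFB3 and NDUFC1 responded higher there, by 0.66 and 0.61, and NDUFA7 by 2.40 on few counts. Without S4 all 4 passed again, with 13 others, 17 of 85 against 25.6% of all genes. Leaving out S1 or S2 instead lost all 4 calls, and leaving out any other single library kept COX4I1 alone. With no filter on low counts the NDUFB3, NDUFC1 and NDUFA7 calls were lost. NDUFA7 was lost with DESeq2 too, and had enough counts to be tested mainly through the HCC1187 knockdown libraries.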

How the results depend on the processing

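No paired analysis was possible because the count columns carry no replicate number. In HCC1187, 28 genes passed, 21 higher and 7 lower. All 12 libraries in one fit gave 10 (8 higher, 2 lower), and a threshold of 0.01 gave 13 (8 higher, 5 lower). Leaving out 1 library gave 14 to 26, with 18 without S7 (11 higher, 7 lower) and 14 without S8 (8 higher, 6 lower). The number of rises thus depended on single control libraries more than the number of falls did. In MDA-MB-468, 0 passed; leaving out 1 library gave 0 to 16, the 16 without S4. Without S4, 16 passed; a threshold of 0.01 gave 7, and leaving out a further library gave 7 to 20 (10 without S1, 9 without S2, 9 without S5, 7 without S6). The difference between lines passed for 4 genes; DESeq2 gave 8, a threshold of 0.01 gave 0, and leaving out 1 library gave 0 to 17: 0 without S1 or S2, 17 without S4 and 1 without any of the other 9. The control comparison gave 61 genes and 57 to 61 with 1 library left out. Its direction turned with library totals for COX7A2 (0.018), NDUFB2 (0.00043) and ATP5PO (0.013), none past the threshold. NDUFB3, NDUFAF3, NDUFS6, NDUFB9, COX4I1, ATP5PD and NDUFAF8 passed in HCC1187 under each of 13 alternatives, and NDUFB1, UQCRC2 and ATP5F1A in MDA-MB-468 without S4 under each of 10. The cause of the other changes was not tested.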
